A study of Equus caballus with 25 samples.

Results

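The genes described here encode 3 adhesion receptors and 1 gap junction protein in the endometrium, which lines the uterus: CD44, CADM1, ITGA2B and GJB1. They were chosen by earlier results on these arrays, GJB1 and ITGA2B by their difference between days 0 and 3, CD44 and CADM1 by their difference between days 3 and 8. The members are all probes whose RefSeq transcript belongs to one of these genes, 5 of the 43603 probes on the array and 4 of the 620 genes with a name. CD44 (gene ID 100034221, transcript NM_001085435), CADM1 (100062374, XM_001502299) and ITGA2B (100009697, NM_001081793) had 1 probe each, and GJB1 (100034021, NM_001081891) had 2. All 5 probes passed the filter on dim probes.

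Messenger RNA of transcervical biopsies from 5 normally cycling Bavarian Warmblood mares was measured on one-colour Agilent arrays at days 0, 3, 8, 12 and 16 of the oestrous cycle, with 1 array per mare and day. Ovulation set day 0, sampled shortly afterwards. By the labels, day 3 is early luteal, day 8 mid luteal and day 12 late luteal, the time of progesterone from the corpus luteum, and day 16 lies at the start of the next oestrus. The labels name no treatment of any group. Biopsies of a mare came from different cycles, so a series of 5 days is put together from several cycles of 1 animal. A biopsy holds lining and glandular epithelium, stroma, vessels and blood cells together. In such tissue, fewer cells of a type and less RNA per cell cannot be told apart.

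Cells of the endometrium hold to each other and to the matrix through several families of membrane proteins. CD44 is the main receptor for hyaluronan, a large sugar polymer of the matrix, and is found on epithelial cells, fibroblasts and leukocytes. CADM1 is an adhesion protein with immunoglobulin domains that binds its own kind or relatives on the neighbouring cell without calcium. GJB1 is a connexin; connexins form the channels of gap junctions, through which small molecules pass directly between neighbouring cells, and GJB1 is known mostly from epithelia such as the liver and from Schwann cells. ITGA2B is the alpha chain of the fibrinogen receptor of platelets, which it forms with the beta chain ITGB3. Adhesion and junction proteins of the uterus are known to vary with ovarian steroids, and the uterine lining prepares for the embryo in the luteal phase.

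Levels are log2 signals relative to the 75th percentile of the array, so a step of 1 means a 2-fold difference. Levels of different probes are not compared with each other, since probes differ in how well they bind. On single arrays the 75th percentile of the signal was 698 to 3701, and its median was 895 at day 0 against 1559 to 2001 on the other days. The median correlation of an array with the other arrays of its day lay between 0.954 and 0.982. Each of the 5 probes was well above background on all 25 arrays, and none of their spots was saturated or an outlier. The number of arrays, 5 per day, limits the precision. A difference is given as the first day minus the second with its standard error from limma's model of all 25 arrays, and was called at an adjusted p under 0.05. A gene was not tested in comparisons that use arrays of the 2 days that chose it, days 0 and 3 for GJB1 and ITGA2B and days 3 and 8 for CD44 and CADM1. Such differences are given as a description. The course of all 4 genes over the cycle was known when they were put together, so the tests on other days are no independent support.

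**Figure D1:**
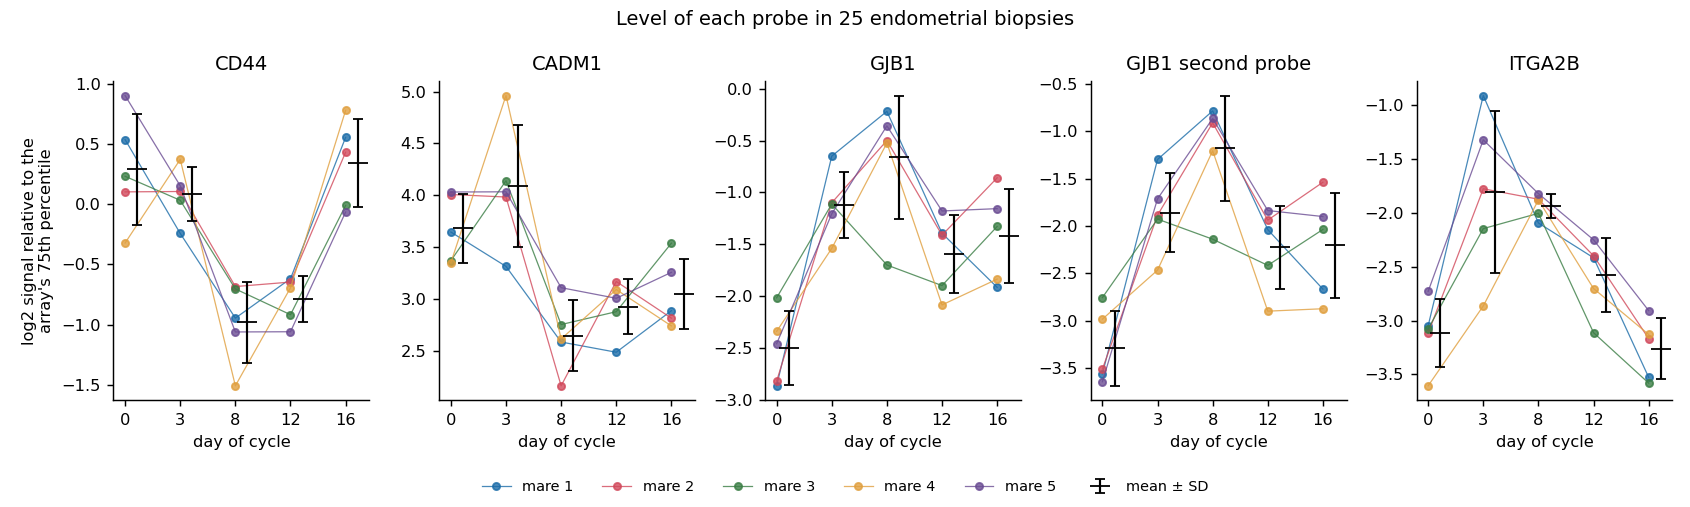
Log2 signal relative to the array's 75th percentile (y axis, a scale of its own per panel) against the day of the cycle (x axis) for the 5 probes. Points are arrays, lines join the arrays of a mare although its biopsies came from different cycles, and black bars are the mean ± SD of 5 mares. CD44 is low on days 8 and 12, CADM1 is highest on days 0 and 3, both GJB1 probes are lowest on day 0 and peak on day 8 in 4 mares, and ITGA2B is high on days 3 and 8.

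CD44, the hyaluronan receptor, had a high level around ovulation and in the early luteal phase and a low one in the mid and late luteal phase. At day 0 the levels of mares 1 to 5 were 0.54, 0.10, 0.23, −0.32 and 0.90, a mean of 0.29 ± 0.46 (SD, n = 5). At day 3 they were −0.24, 0.10, 0.03, 0.37 and 0.15 (0.08 ± 0.22). The arrays of these days overlapped, and 3 of 5 mares were lower at day 3. At day 8 the levels were −0.95, −0.68, −0.70, −1.51 and −1.06 (−0.98 ± 0.34). At day 12 they were −0.62, −0.65, −0.92, −0.69 and −1.06 (−0.79 ± 0.19). Every array of these luteal days lay below every array of days 0 and 3. At day 16 the levels had a mean of 0.34 ± 0.37, with 0.55, 0.43, −0.01, 0.78 and −0.07 in mares 1 to 5. CD44 thus fell into 2 blocks that did not overlap. The 10 arrays of days 8 and 12 lay between −1.51 and −0.62, and the 15 arrays of days 0, 3 and 16 lay between −0.32 and 0.90. These blocks were drawn after the values were seen and hold the day 3 and day 8 arrays that chose CD44. How many of all probes split this way was not counted.

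The return of CD44 at the end of the luteal phase was the largest tested step between successive days among the 4 genes. From day 12 to day 16 it rose by 1.12 ± 0.22 (95% interval 0.68 to 1.57), a 2.18-fold difference (limma, adjusted p = 0.00163). All 5 mares moved the same way, by 0.91 to 1.47. The 3 slides that held both days repeat the pairs of mares 1, 3 and 4. CD44 was the 1 gene of the 4 called in this comparison, in which 8.07% of all tested probes were called. Its groups did not overlap, which held for 3.11% of probes in the upward direction. The call stood in all 12 other settings (adjusted p 0.000815 to 0.0453) and with each array or mare left out (0.000900 to 0.0214). No array of this comparison was used to choose CD44.

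Between day 3 and day 8, the comparison that chose it, CD44 was lower by 1.06 ± 0.22 on the log2 scale in the fit, with all 5 mares lower. Its groups did not overlap there, as was the case downward for 8.10% of all probes. Day 12 against day 0, which shares no array with that choice, gave −1.08 ± 0.22 (95% interval −1.52 to −0.63, adjusted p = 0.00104), and CD44 fell in all 5 mares. With mare and slide together in the model this was −0.96 with an adjusted p of 0.130. Beside it, the stromal markers DCN (−1.03, adjusted p = 0.00732) and LUM (−2.13, adjusted p = 0.000156) fell in all 5 mares, and their part in the CD44 difference was not tested. Day 12 against day 8 gave 0.19 ± 0.22 (95% interval −0.25 to 0.64). Day 0 against day 16 did not pass the test (−0.05 ± 0.22, −0.49 to 0.40, adjusted p = 0.925). The order of the day means was day 16, 0, 3, 12 and 8, in which only the step between days 3 and 12 was larger than the SD of both days. The lowest day was day 8 in 4 mares and day 12 in mare 3. Day 16 was the highest day in mares 1, 2 and 4 and day 0 in mares 3 and 5.

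Markers of other cells moved beside the rise of CD44 from day 12 to day 16. Of 8 stromal marker genes 2 had a named probe: LUM, a matrix proteoglycan of fibroblasts, rose by 1.64 ± 0.35 (adjusted p = 0.00399), and DCN differed by 0.65 ± 0.26 (adjusted p = 0.148). Their summed level, in multiples of the 75th percentile, had a median of 16.0 (12.6 to 20.0) at day 12 and of 28.2 (18.2 to 36.9) at day 16. TAGLN, the 1 named of 6 smooth muscle markers, rose by 1.46 ± 0.32 (adjusted p = 0.00498). The 5 named of 16 leukocyte markers, CD2, CD14, CD68, GNLY and CCL5, summed to 3.70 (3.34 to 4.57) at day 12 and 3.42 (3.13 to 7.46) at day 16, and none of them was called. ESRP1, the 1 named of 11 epithelial markers, was not called either (−0.19 ± 0.18, adjusted p = 0.565). The part of these cell types in the CD44 result was not tested.

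CADM1, the immunoglobulin adhesion protein, was highest at ovulation and in the early luteal phase and stayed lower from day 8 to day 16. At day 0 the levels of mares 1 to 5 were 3.65, 4.01, 3.37, 3.35 and 4.03 (3.68 ± 0.33). At day 3 they were 3.31, 3.98, 4.14, 4.96 and 4.03 (4.09 ± 0.59), the widest spread of its 5 days. Mare 4 gave the highest array of all 25 there, and 3 of 5 mares were higher at day 3 than at day 0. At day 8 the levels were 2.59, 2.16, 2.75, 2.61 and 3.11 (2.64 ± 0.34). At day 12 they were 2.49, 3.17, 2.88, 3.09 and 3.01 (2.93 ± 0.27), and at day 16 they were 2.89, 2.82, 3.54, 2.74 and 3.26 (3.05 ± 0.34). These 3 days overlapped with each other. The 10 arrays of days 0 and 3 started at 3.31, and mare 3 at day 16 was the single later array above that.

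Day 8 against day 3, which chose CADM1, gave −1.44 ± 0.25, with all 5 mares lower. The arrays did not overlap there, as was the case downward for 8.10% of all probes. Mare differences ran from −2.35 in mare 4 to −0.73 in mare 1. Day 12 against day 8 gave 0.28 ± 0.25 (95% interval −0.23 to 0.79), which was 0.10 without mare 2 and 0.70 under normexp. Day 16 against day 12 gave 0.12 ± 0.25 (−0.39 to 0.63, adjusted p = 0.814) and turned to −0.013 without mare 3. Day 0 against day 16 gave 0.63 ± 0.25 (0.12 to 1.14, adjusted p = 0.148), with 4 of 5 mares higher at day 0.

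Day 12 against day 0, which shares no array with the choice of CADM1, gave −0.75 ± 0.25 (95% interval −1.27 to −0.24, adjusted p = 0.0356). CADM1 fell in all 5 mares, by 0.26 to 1.16 on the log2 scale, and the groups did not overlap, as downward for 6.87% of probes. In this comparison 17.9% of all tested probes were called. Both CD44 and CADM1 were among them. GJB1 and ITGA2B went the other way on these days, by 0.91 ± 0.27 with 5 of 5 mares higher at day 12 and by 0.54 ± 0.26 (0.22 under normexp) with 4 of 5 mares higher, and were not tested, since the day 0 arrays had chosen them. The call of CADM1 was lost under normexp (−0.68, adjusted p = 0.516), with slide as a block (−0.62, 0.111), with mare and slide (−0.52, 0.482) and with the signal level of the array in the model (−0.67, 0.144). It was also lost without all arrays of mare 1, 2, 3 or 5 (−0.82 to −0.65), without the day 0 array of mare 1, 2 or 5 (−0.76 to −0.67) and without the day 12 array of mare 1, 3 or 5 (−0.77 to −0.64). Beside it, the stromal markers fell, DCN by 1.03 ± 0.26 (adjusted p = 0.00732) and LUM by 2.13 ± 0.35 (adjusted p = 0.000156) on the log2 scale, while ESRP1 gave 0.02 ± 0.18 (adjusted p = 0.955), and TAGLN and the 5 leukocyte markers were not called. Their part in the CADM1 difference was not tested. The order of the CADM1 day means was day 3, 0, 16, 12 and 8, in which only the step between days 0 and 16 was larger than the SD of both days.

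**Figure D2:**
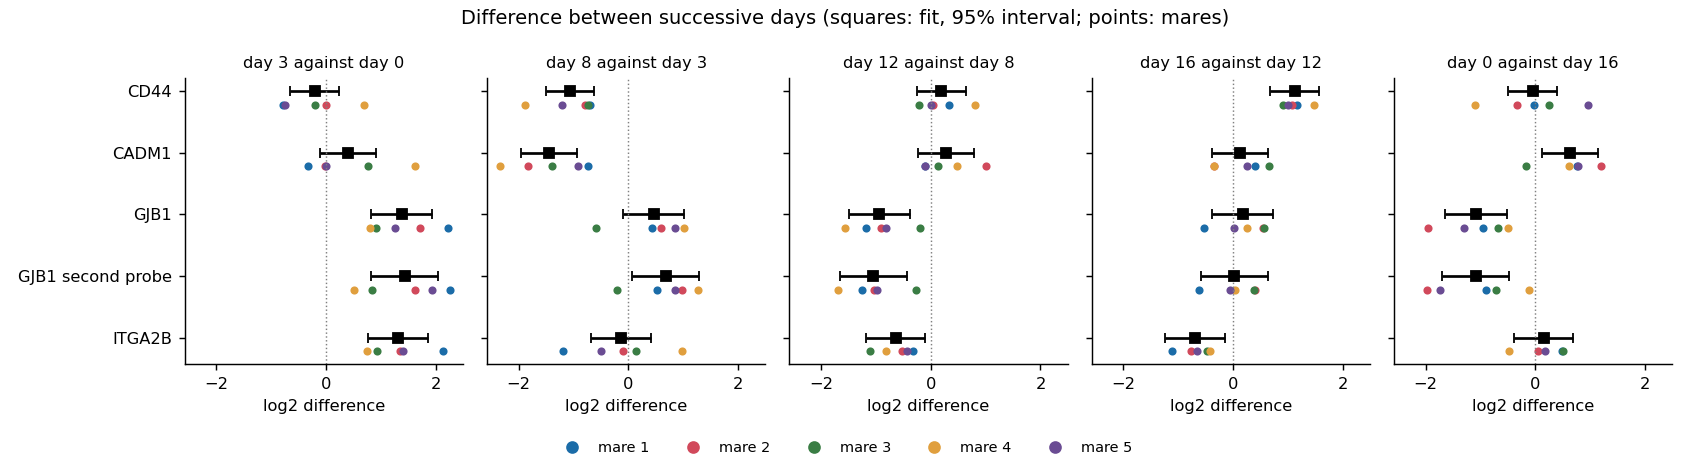
Log2 difference between successive days (x axis, first day minus second) for each probe (rows). Squares and bars are the fitted difference with its 95% interval, and the points under them are the differences within the 5 mares. CD44 from day 12 to day 16 has every mare between 0.91 and 1.47, and both GJB1 probes have every mare below 0 for day 0 against day 16.

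GJB1, the connexin, was lowest at ovulation and highest in the mid luteal phase. Values are for the probe with the higher mean signal unless the other is named. At day 0 the levels of mares 1 to 5 were −2.87, −2.82, −2.02, −2.34 and −2.46 (−2.50 ± 0.35). At day 3 they were −0.65, −1.10, −1.11, −1.54 and −1.21 (−1.12 ± 0.32). Every day 3 array lay above every day 0 array, a pattern that 4.64% of all probes showed in that direction. At day 8 the levels were −0.22, −0.50, −1.70, −0.52 and −0.36 (−0.66 ± 0.59), and at day 12 they were −1.39, −1.41, −1.90, −2.09 and −1.18 (−1.59 ± 0.38). Mare 3 stood apart at day 8, below all other mares of that day and below its own day 3. At day 16 the levels were −1.92, −0.86, −1.33, −1.84 and −1.16 (−1.42 ± 0.45), above all arrays of day 0.

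In day 3 against day 0, from which GJB1 had been chosen, the difference was 1.38 ± 0.27, a 2.60-fold higher level at day 3, with all 5 mares between 0.80 and 2.22. Over all tested probes the median of that comparison was −0.11, and 0.00 after quantile normalization, where GJB1 gave 1.35. Day 8 against day 3 gave 0.46 ± 0.27, with 4 of 5 mares higher at day 8. Day 8 was the highest day in 4 mares and day 3 in mare 3, and day 0 was the lowest day in all 5. The distance between the highest and lowest day was 0.91 in mare 3 and 1.82 to 2.65 in the other mares.

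Day 0 against day 16, which uses the day 0 arrays that chose GJB1, gave −1.08 ± 0.27 (95% interval −1.64 to −0.52), with all 5 mares lower at day 0 and no overlap, as downward for 1.77% of probes. Within the 3 slides that held both days, which repeat the pairs of mares 4 and 5, the difference was −2.01 to −0.50. It ranged from −1.24 with slide as a block to −0.82 under normexp. TAGLN of smooth muscle fell as well from day 16 to day 0 (−1.15 ± 0.32, adjusted p = 0.0383, lower in 5 of 5 mares), and none of the named stromal, leukocyte and epithelial markers was called. The part of smooth muscle in the GJB1 difference was not tested. The 75th percentile of the signal had its lowest median at day 0, with a range of 698 to 1556 that overlapped those of days 8, 12 and 16. The range of day 3, 1601 to 2492, lay wholly above it. Over the 25 arrays the GJB1 level had a Pearson correlation of 0.43 with the log2 75th percentile, or 0.24 after removal of the day means. For ITGA2B these values were 0.28 and 0.42.

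On the way down from day 8, day 12 against day 8 gave −0.93 ± 0.27 (95% interval −1.49 to −0.38), with all 5 mares lower, and did not pass (unadjusted p = 0.00213, adjusted p = 0.0869). Only 1.10% of all tested probes were called in that comparison. By limma 0 of the 2 genes tested in it, GJB1 and ITGA2B, were called, while both had an unadjusted p under 0.05. The leukocyte markers GNLY (1.23 ± 0.27, adjusted p = 0.0293) and CCL5 (0.97 ± 0.24, adjusted p = 0.0448) rose over these days, and the part of leukocytes was not tested. Day 16 against day 12 gave 0.17 ± 0.27 (−0.38 to 0.73, adjusted p = 0.748). Day 16 against day 8, which shares no array with the choice of GJB1, gave −0.76 ± 0.27 (−1.32 to −0.20, adjusted p = 0.0600), with 4 of 5 mares lower and mare 3 higher. It became −1.02 (adjusted p = 0.00695) when the day 8 array of mare 3 was left out, −1.04 (0.0182) when all of mare 3 was, and −0.90 (0.0350) when the day 16 array of mare 2 was. The order of the day means was day 8, 3, 16, 12 and 0, in which only the step between days 12 and 0 was larger than the SD of both days.

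The second GJB1 probe followed the first over the 25 arrays with a Pearson correlation of 0.98, and of 0.95 after removal of the day means. Its means over days 0, 3, 8, 12 and 16 were −3.29 ± 0.40, −1.86 ± 0.42, −1.18 ± 0.56, −2.23 ± 0.44 and −2.20 ± 0.55. It too was lowest at day 0 in all 5 mares and highest at day 8 in all but mare 3. Day 0 against day 16 gave −1.09 ± 0.30, and −0.63 under normexp. All 5 mares were lower at day 0, mare 4 with only −0.11, and unlike with the first probe the groups overlapped. Day 12 against day 8 gave −1.05 ± 0.30 (adjusted p = 0.0813), which passed after quantile normalization (−1.10, adjusted p = 0.0426). Day 16 against day 8 passed with this probe (−1.02 ± 0.30, adjusted p = 0.0210), in a comparison with 15.0% of all probes called, and not with the first. That call was lost with mare and slide in the model (−0.95, adjusted p = 0.121) and with only these days in the fit (−1.02, 0.0732). It was also lost without mare 1, 2, 4 or 5, without the day 8 array of mare 1, 2 or 5, and without the day 16 array of mare 4 (−1.12 to −0.81, adjusted p 0.0521 to 0.111). The probes read the same RNA of the same biopsies, so they check the array reading of GJB1 and are not replicates of the tissue.

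**Figure D3:**
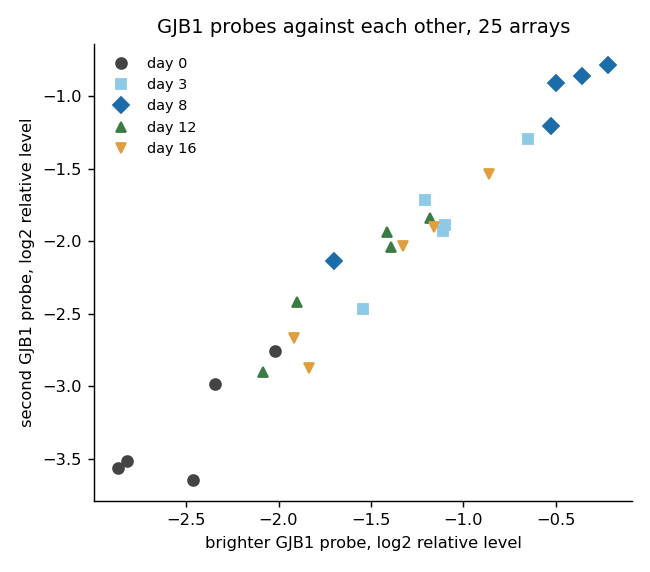
Log2 relative level of the second GJB1 probe (y axis) against the brighter GJB1 probe (x axis) in 25 arrays, with a symbol per day. The points lie close to a line (Pearson correlation 0.98), day 0 fills the low end, and the day 8 array of mare 3 lies apart from the 4 other day 8 arrays on both axes.

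GJB1 is a gene of epithelia, and the single named epithelial marker was ESRP1, a splicing regulator. ESRP1 had day means of 3.16, 2.97, 2.94, 3.18 and 2.99 at days 0, 3, 8, 12 and 16, and was called in none of the successive comparisons. The stromal markers fell from day 0 to day 3, DCN by 1.09 ± 0.26 (adjusted p = 0.00884) and LUM by 1.32 ± 0.35 (adjusted p = 0.0162) on the log2 scale, beside the higher GJB1 and ITGA2B levels of day 3. Their summed level, again mostly DCN, had a median of 34.9 at day 0 and 23.5 at day 3. Of the 5 leukocyte markers GNLY fell too (−0.97 ± 0.27, adjusted p = 0.0205, 5 of 5 mares), while CD68 gave −1.03 ± 0.35 (0.0515), and their summed level had a median of 3.66 (2.25 to 5.37) at day 0 and 2.37 (2.28 to 3.02) at day 3. The part of these cell types in these differences was not tested.

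ITGA2B, the alpha chain of the platelet fibrinogen receptor, was high in the early and mid luteal phase and low around ovulation. At day 0 the levels of mares 1 to 5 were −3.05, −3.12, −3.08, −3.61 and −2.73 (−3.11 ± 0.31). At day 3 they were −0.91, −1.77, −2.14, −2.86 and −1.32 (−1.80 ± 0.75). All mares were higher at day 3, by 0.74 to 2.14, but mare 4 at day 3 lay below mare 5 at day 0, so the groups overlapped. At day 8 the levels were −2.09, −1.87, −2.00, −1.88 and −1.82 (−1.93 ± 0.11), and at day 12 they were −2.42, −2.40, −3.11, −2.70 and −2.25 (−2.57 ± 0.34). At day 8 the mares lay within a narrow band, above all arrays of day 12. At day 16 the levels were −3.53, −3.17, −3.58, −3.13 and −2.91 (−3.26 ± 0.28), back in the range of day 0.

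ITGA2B came down over both steps after day 8, and the sum of them passed the test. Day 16 against day 8, which shares no array with the choice of ITGA2B, gave −1.33 ± 0.26 (95% interval −1.87 to −0.78, adjusted p = 0.00123), so the level at day 8 was 2.51-fold that at day 16. It fell in all 5 mares, by 1.09 to 1.58 on the log2 scale, with no overlap, as downward for 5.62% of probes. The call stood in all 12 other settings (adjusted p 0.000286 to 0.0262) and with each array or mare left out (0.000196 to 0.0172). The 4 slides that held both days showed −1.58 to −1.09, but they repeat the pairs of mares 1, 3 and 5. Beside this fall of ITGA2B, markers of other cells rose from day 8 to day 16. The leukocyte genes GNLY (1.52 ± 0.27, adjusted p = 0.000389), CD14 (1.18 ± 0.27, 0.00468) and CCL5 (0.89 ± 0.24, 0.0115) rose, while CD2 (0.09 ± 0.24, 0.845) and CD68 (−0.10 ± 0.35, 0.872) were not called, and the leukocyte sum went from a median of 1.89 (1.49 to 2.03) to 3.42 (3.13 to 7.46). DCN of the stroma (1.04 ± 0.26, 0.00840) and TAGLN of smooth muscle (1.77 ± 0.32, 0.000504) rose as well, LUM gave 0.82 ± 0.35 (0.122) and ESRP1 0.05 ± 0.18 (0.881). Their part in the ITGA2B and GJB1 results of these days was not tested.

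Neither step alone passed. Day 12 against day 8 gave −0.64 ± 0.26 (95% interval −1.19 to −0.10, unadjusted p = 0.0231, adjusted p = 0.231), with all 5 mares lower and no overlap, as downward for 4.33% of probes. With only these days in the fit its adjusted p was 0.0493. Day 16 against day 12 gave −0.69 ± 0.26 (−1.23 to −0.14, unadjusted p = 0.0159, adjusted p = 0.122), again with all 5 mares lower. Day 0 against day 16 gave 0.15 ± 0.26 (−0.40 to 0.69), and 0.52 with the signal level of the array in the model.

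In day 3 against day 0, which chose ITGA2B, the difference was 1.31 ± 0.26. It ranged from 0.92 under normexp to 1.58 without the day 3 array of mare 4. Day 8 against day 3 gave −0.13 ± 0.26, and this small value turned to 0.25 under normexp and to 0.13 without mare 1. The order of the day means was day 3, 8, 12, 0 and 16, in which the steps between days 8 and 12 and between days 12 and 0 were larger than the SD of both days. Day 3 was the highest day in mares 1, 2 and 5 and day 8 in mares 3 and 4, and day 16 was the lowest in all but mare 4.

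The partner chain of ITGA2B was near background. ITGB3 had 5 probes, which were well above background in 12 of their 125 readings, 1 to 4 of 25 arrays each, so it was not tested. Of 11 platelet markers 2 had a name, ITGB3 itself and SELP, the P-selectin of platelets and endothelium. Over days 0, 3, 8, 12 and 16, the median of their summed level was 0.236 (0.152 to 0.310), 0.080 (0.069 to 0.167), 0.181 (0.126 to 0.268), 0.250 (0.172 to 0.350) and 0.273 (0.175 to 1.21). SELP thus had its lowest values on day 3, where ITGA2B had its highest mean, and its difference between days 16 and 8 was 0.84 ± 0.40 (adjusted p = 0.169). HBA2, the 1 tested gene of the 8 red cell markers, was called in none of the successive comparisons. The part of blood in the ITGA2B level was not tested.

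The 4 genes did not share 1 course. Over the 25 arrays, as a description across arrays that share mares, slides and scaling, the Pearson correlation was 0.63 between GJB1 and ITGA2B and 0.53 between CADM1 and CD44. After removal of the day means these were 0.40 and 0.09. CD44 and GJB1 gave −0.51 over all arrays and −0.41 after the day means were removed. CADM1 and ITGA2B gave −0.06 over all arrays and −0.45 after the day means were removed. The spread between mares within a day, pooled over the days, was 0.33 for CD44, 0.39 for CADM1, 0.42 for ITGA2B and 0.43 and 0.48 for the GJB1 probes, against a median of 0.45 over all tested probes.

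Mares kept no order common to all 4 genes, but mare 4 was lowest for GJB1 and ITGA2B, with mare 3 close to it (−1.61 and −2.78). For CD44 mares 3 and 4 were level at the low end (−0.274 and −0.275). Mare 5 was highest for CADM1, GJB1 and ITGA2B. Averaged over the 5 days, CADM1 ran from 2.98 in mare 1 to 3.49 in mare 5, and ITGA2B from −2.84 in mare 4 to −2.20 in mare 5. GJB1 ran from −1.67 in mare 4 to −1.27 in mare 5. CD44 differed least between mares, from −0.28 in mare 4 to −0.14 in mare 2.

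Among 512 other named genes, the course most like that of CD44 belonged to PLA2G4A, the phospholipase that frees arachidonic acid, with a Pearson correlation of 0.88 over 25 arrays, and 0.45 after removal of the day means. SPRED1, an inhibitor of Ras signalling, was close to it with 0.87, and 0.50 after removal of the day means. PLA2G4A had means of 0.11, −0.44, −2.04, −1.42 and 0.54 at days 0, 3, 8, 12 and 16. The lowest correlation was that of CTTNBP2 with −0.88 (−0.51 after removal of the day means), whose means were 0.28, 0.66, 2.95, 3.11 and 0.94. The low luteal block of CD44 was thus matched by a high luteal block of CTTNBP2.

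ITGA2B was most like BSG, the membrane glycoprotein basigin, with 0.90, and 0.76 after removal of the day means. LGB1, a beta-lactoglobulin gene (0.78), and HK2, a hexokinase of glycolysis (0.76), came next. PPARGC1A, a coactivator of mitochondrial genes, was lowest with −0.78. After removal of the day means LGB1, HK2 and PPARGC1A gave 0.62, 0.49 and −0.29. LGB1 had means of −8.56 at day 0 and −8.27 at day 16, levels at which ITGB3 was near background. GJB1 was most like PPAT, an enzyme of purine synthesis (0.79), HK2 (0.75) and the superoxide dismutase SOD1 (0.73), and least like RBPMS with −0.78. After removal of the day means these were 0.48, 0.35, 0.23 and −0.19. CADM1 was most like SPTBN1, a spectrin of the membrane skeleton (0.81, and 0.75 within days), IDUA, a lysosomal enzyme (0.80), and INTS3 (0.78). It was least like the matrix protein COMP with −0.70. Within days IDUA, INTS3 and COMP gave 0.66, 0.50 and −0.36. HK2 was the 1 gene near the top for both GJB1 and ITGA2B, with means of −4.54, −2.61, −1.62, −2.51 and −3.85 over the 5 days.

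**Figure D4:**
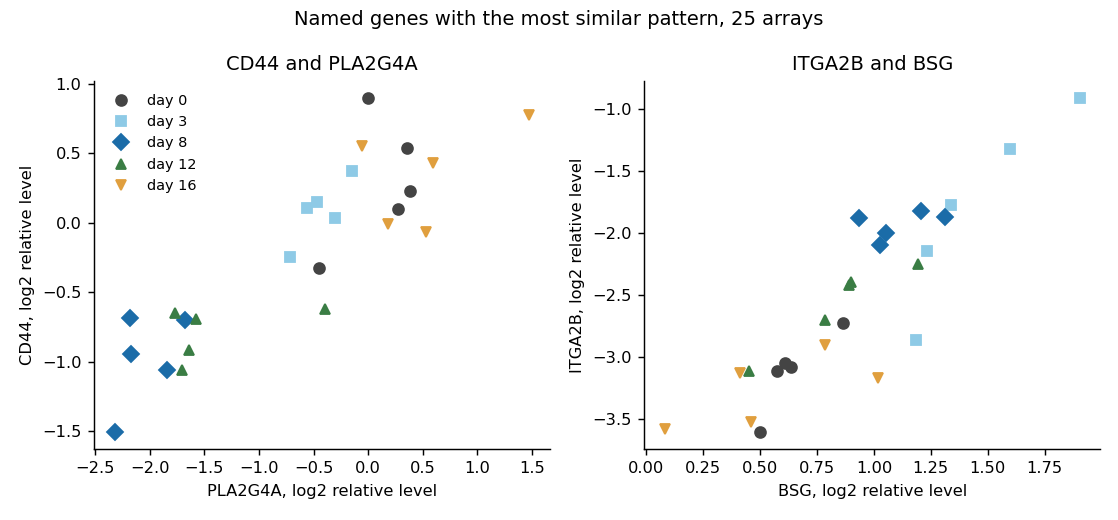
Log2 relative levels in 25 arrays, CD44 (y axis) against PLA2G4A (x axis) on the left and ITGA2B (y axis) against BSG (x axis) on the right, with a symbol per day. On the left, days 8 and 12 lie apart from the other days on the CD44 axis; on the right, the points follow a line within and between days (Pearson correlations 0.88 and 0.90).

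Few other adhesion and junction genes could be read. Of 202 genes on 8 lists of adhesion and junction families, 20 had a named probe and 18 a tested one, 14 besides the 4 members. GJB1 was the single named gene of 21 connexins and pannexins, and 0 of 28 tight junction genes had a name. From day 0 to day 3, 1 of the 14 rose and 2 fell, where 29 of 513 named genes rose and 47 fell and 12.7% of all probes were called. From day 3 to day 8, 0 rose and 1 fell (34 and 38 of the named genes, 13.8% of probes). From day 8 to day 12, 0 were called by limma (11 rose and 2 fell of the named genes, 1.10% of probes), with 2 at an unadjusted p under 0.05. From day 12 to day 16, 1 rose and 1 fell (40 and 16 of the named genes, 8.07% of probes). From day 16 to day 0, 0 were called by limma (4.71% of all probes were), with 1 at an unadjusted p under 0.05. The medians of the 14 were −0.19, 0.00, 0.26, −0.22 and −0.10 over these steps, beside −0.20, 0.02, 0.13, −0.02 and 0.09 for all named genes.

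VCAM1, the ligand of leukocyte integrins on endothelium and stroma, was highest on day 12 and lowest on day 16. Its means were −0.14, 0.53, 0.53, 0.77 and −0.30 over the 5 days. It fell by 1.07 ± 0.22 on the log2 scale from day 12 to day 16 (adjusted p = 0.00321) in all 5 mares and under every other setting. Its rise from day 0 to day 3 (0.67 ± 0.22, adjusted p = 0.0493) was lost in 5 of 12 other settings and in 23 of 30 fits that left out an array or a mare (0.55 to 0.79).

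CDH13, a cadherin anchored in the membrane without a cell-spanning tail, fell by 1.36 ± 0.29 on the log2 scale from day 0 to day 3 (adjusted p = 0.00468), and its second probe gave −1.39 (adjusted p = 0.00744). The call was lost under normexp (adjusted p = 0.0515), with mare and slide (0.0908) and with the signal level of the array in the model (−0.88, 0.0913). SELP fell by 1.24 ± 0.40 over the same days (adjusted p = 0.0451), a call lost in 4 of 12 other settings and in 19 of 30 fits that left out an array or a mare (−1.43 to −1.11). Both were lower on day 3 while GJB1 and ITGA2B were higher.

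**Figure D5:**
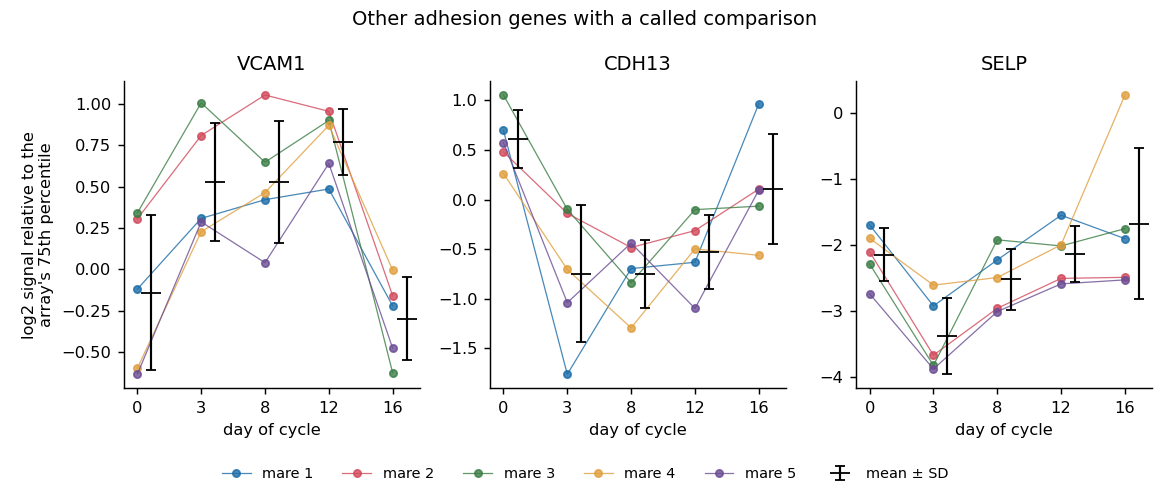
Log2 signal relative to the array's 75th percentile (y axis, a scale of its own per panel) against the day of the cycle (x axis) for 3 other adhesion genes with a called step between successive days. Points are arrays, lines join the arrays of a mare, and black bars are the mean ± SD of 5 mares. VCAM1 is low on days 0 and 16, CDH13 drops from day 0 to day 3, and 1 array of SELP at day 16, that of mare 4, lies far above the others.

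Of the 14 tested genes, 10 were called in no step between successive days. Among the hyaluronan genes, which share their sugar with CD44, these were HAS2, a hyaluronan synthase, and TNFAIP6, a hyaluronan-binding protein. HAS2 differed most from day 3 to day 8 (0.95 ± 0.47, adjusted p = 0.205), and TNFAIP6 from day 12 to day 16 (1.18 ± 0.66, adjusted p = 0.311). Of the integrin genes, ITGA5, ITGA9, ITGAX and the adaptor LIMS1 were tested, with differences of at most 0.77 in size (ITGA5 from day 8 to day 12, adjusted p = 0.215). CTNNB1, the catenin of cadherin junctions, reached −0.51 ± 0.26 from day 3 to day 8 (adjusted p = 0.216). PECAM1, of endothelial junctions, reached 0.74 ± 0.19 from day 8 to day 12 (adjusted p = 0.0514). SELE and SELPLG, a selectin and a selectin ligand, were also not called.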

How the data were processed

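The authors' deposited values are signal intensities of one-colour arrays. The background was subtracted by Agilent Feature Extraction 10.7.3.1, per the file headers, which record no scaling between arrays. The authors' deposited value table equalled the scanner intensity in 25 of 25 arrays. Total RNA was isolated with Trizol and its cRNA carried Cy3, per the labels' protocols. Control spots were left out, intensities were log2-transformed and set relative to the array's 75th percentile, and spots of a probe were averaged. This scaling hides any change of the whole messenger RNA pool. Tested were the 35770 of 43603 probes that the scanner software put well above background on 4 or more of the 5 arrays in 1 of the days.

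limma 3.58.1 (R 4.3.3) fitted all 25 arrays with day as the term, two-sided, with Benjamini-Hochberg adjustment within each comparison over all tested probes. The fit was tested on simulated data. Python 3.11.15 and matplotlib 3.10.9 drew the figures. RefSeq accessions gave names to 1307 probes of 620 genes (table of the assembly TB-T2T, used for names only), and 32565 probes with Ensembl transcripts were not matched. The brightest probe stood for a gene. The genes named were all probes of the 4 members, the 3 most and 1 least correlated gene for each, and the listed adhesion genes, with values for called ones. Of these, 1 gene much like CD44 and 1 called adhesion gene are not reported here. Values of a few uncalled ones, named to show the largest of them, were chosen after their values were seen. The members and lists were chosen with earlier results of these data known.

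The labels give 1 mare to arrays with the same replicate number. Once the day means were removed, 50 pairs of arrays of 1 mare had a median correlation of 0.245, 200 pairs of different mares −0.046, and the 26 pairs of 1 mare that lay on different slides 0.120. Alternatives were quantile normalization, normexp background correction (offset 50, also with marked backgrounds replaced), other filters, blocks for mare, for slide and for both, fits of the compared days alone, an intensity trend, the array's signal level as a covariate, and leaving out each array or mare. Leaving out day 0 of mare 2 and day 3 of mare 4 together was chosen after seeing the data. The arrays lay on 7 slides and were scanned on 4 days.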

Additional observations from a re-analysis of the deposited data

Results flagged for a closer look

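The GJB1 level of mare 3 at day 8 was −1.70, while the nearest of the other 4 mares of that day stood at −0.52. The gap was 0.794 of the whole range of the 5 arrays, above the critical value of 0.71 of Dixon's test at 95%. The second GJB1 probe read −2.14 on the same array, and its gap was 0.689 of the range. Of 25 groups of 5 arrays (5 probes on 5 days), 1 was marked, and chance marks about 1 in 20. Without this array, GJB1 differed by 0.72 between days 8 and 3, by −1.19 between days 12 and 8 (limma, adjusted p = 0.0524) and by −1.02 between days 16 and 8 (adjusted p = 0.00695).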

How the results depend on the processing

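Of 1092 values (the differences of the main probes of the 4 genes, each under 42 other settings), 1058 kept their direction and side of the threshold or, where not tested, moved by less than 1 SD between mares. Leaving out an array of another day cannot move a difference. For untested differences such fits were bound to count as kept, so this count overstates their stability. With the mare as a replicate block, which pairs the arrays of an animal, no call of the 4 genes changed: CD44 from day 12 to day 16 was 1.12 (adjusted p = 0.00316), ITGA2B between days 16 and 8 −1.33 (0.000470), CADM1 between days 12 and 0 −0.75 (0.0288), and the one count of all called probes that moved by over 1.5 times was that between days 12 and 8, from 392 to 853. With mare and slide, CADM1 between days 12 and 0 was −0.52 and CD44 between days 12 and 0 −0.96, neither called. With slide alone, CADM1 between days 12 and 0 was −0.62 and CD44 between days 0 and 16 turned to 0.042. Under normexp, CADM1 gave −1.84 between days 8 and 3, 0.70 between days 12 and 8 and −0.68 between days 12 and 0, and ITGA2B 0.25 between days 8 and 3. Local backgrounds reached 772899 on 1 array, day 8 of mare 2, and at most 251 elsewhere. Its part in the normexp results was not tested. The size of the CADM1 difference between days 12 and 0 does not use that array, but the spread behind its adjusted p does. The second GJB1 probe turned to −0.018 between days 16 and 12 under normexp and to −0.019 with marked backgrounds replaced. With the signal level as a covariate, CADM1 between days 12 and 0 was −0.67 and CD44 between days 0 and 16 0.097. With only 2 days in the fit, ITGA2B between days 12 and 8 was called at −0.64. After quantile normalization GJB1 between days 16 and 8 was called at −0.76. Leaving out each array or mare gave −0.013 to 0.24 for CADM1 between days 16 and 12, −0.88 to −0.64 for CADM1 between days 12 and 0, −0.30 to 0.22 for CD44 between days 0 and 16, −1.04 to −0.52 for GJB1 between days 16 and 8, −0.41 to 0.13 for ITGA2B between days 8 and 3, and −0.15 to 0.19 for the second GJB1 probe between days 16 and 12. The causes were not tested. The count of all probes called ranged over the 12 settings other than leaving out 1 array or mare from 344 to 8524 between days 3 and 0, 1756 to 6035 between days 8 and 3, 4 to 2409 between days 12 and 8, 674 to 4003 between days 16 and 12, 9 to 7896 between days 0 and 16, 1564 to 7800 between days 12 and 0, and 2021 to 6596 between days 16 and 8.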
